A study of Mus musculus with 8 samples.

Results

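The 10 genes described here encode subunits of integrins, the cell surface receptors through which chondrocytes hold the matrix of cartilage. They were taken by name, as the rows of the mouse GENCODE symbols *Itga1*, *Itga2*, *Itga5*, *Itga6*, *Itga10*, *Itga11*, *Itgav*, *Itgb1*, *Itgb5* and *Itgb8* among the 52325 Ensembl gene identifiers listed for each library, with each identifier counted once. RNA had been sequenced from rib chondrocytes, the cells of costal cartilage, which were freed from the tissue by collagenase, with no sorting step described. All mice were 7 d old and of C57BL/6J strain background. The 4 libraries of the control group came from wild-type mice, and the other 4 from *Mir140*-null mice, which lack the miRNAs of the *Mir140* locus after CRISPR/Cas9 injection into zygotes. The founders were of mixed C57BL/6 and CBA/ca origin and were backcrossed to C57BL/6J, and intercrosses of heterozygous mice gave both lines. The deletion is present in every tissue of the animal, not in chondrocytes only. The labels do not say whether replicates are separate animals, pools or litters, so that p-values measure the spread between these samples, which may be technical. Expression is given in TPM, transcripts scaled to a fixed total per library, a level already divided by transcript length, so that levels of different genes can be set side by side on this scale.

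Integrins are dimers of an alpha and a beta subunit, which span the membrane, bind a matrix protein outside the cell and are tied to actin filaments inside it. Among the alpha subunits listed here, *Itga1*, *Itga2*, *Itga10* and *Itga11* form collagen receptors with *Itgb1*: *Itga10* is the one typical of chondrocytes and binds type II collagen, *Itga1* and *Itga2* are found in many cell types, and *Itga11* is typical of fibroblasts and mesenchymal cells. *Itga5* pairs with *Itgb1* as the classical fibronectin receptor and *Itga6* as a laminin receptor. *Itgav* pairs with several beta subunits, among them *Itgb5*, which binds vitronectin, and *Itgb8*, which binds latent TGF-beta. In cartilage, loss of *Itgb1* from chondrocytes is known to disturb the columns of the growth plate.

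The deleted locus makes miR-140-5p and miR-140-3p, and the latter occurs in forms that begin at neighbouring bases and so have different seeds, the bases by which a miRNA finds its targets. The mature miR-140-3p of RefSeq lies at chr8:107551288-107551308 on the + strand of GRCm38.p6 and is printed here with the seed of each form in capitals, since the sites searched for in the integrin mRNAs are made from these letters.
miR-140-3p, seed of miR-140-3p.2 (bases 2 to 8): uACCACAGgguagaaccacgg
miR-140-3p, seed of miR-140-3p.1 (bases 3 to 9): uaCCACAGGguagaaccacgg
The mature sequence of miR-140-5p is not printed.

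The longest annotated 3'UTR of each of the 10 genes was searched on its own strand for AACCACT (miR-140-5p), CCTGTGG (miR-140-3p.1) and CTGTGGT (miR-140-3p.2), each of which pairs with 7 seed bases, and for the 7-base words in which the last 6 of these letters are followed by A. The words of the forms of miR-140-3p share 6 bases, so 1 stretch can hold both. *Itga1* held 2 miR-140-5p sites, 3 miR-140-3p.1 sites and 1 miR-140-3p.2 site, *Itgav* and *Itga11* held a single miR-140-3p.1 site each, and *Itga6* a single miR-140-3p.2 site. The other 6 members held none of these words in that window. The sites with 7 seed bases paired are shown with those bases in capitals, as DNA on the strand of the gene, with positions in GRCm38 (mm10).
Itga6 for miR-140-3p.2, chr2:71853696-71853718, + strand: gggacctgCTGTGGTtgtggtgg
Itga1 for miR-140-5p, chr13:114955698-114955720, - strand: acgtttacAACCACTtgggtgac
Itga1 for miR-140-3p.2, chr13:114956877-114956899, - strand: tctaacatCTGTGGTccaattta
Itgav for miR-140-3p.1, chr2:83806297-83806319, + strand: accatgaaCCTGTGGctatgcca
The site of *Itgav* begins at base 2970 of a 3'UTR of 3581 bases, and that of *Itga6* at base 63 of 1310. Of the 12988 tested genes with an annotated 3'UTR, 14.3% held a miR-140-5p site, 30.3% a miR-140-3p.1 site and 24.9% a miR-140-3p.2 site, and among the 10 members these were 1, 3 and 2 genes. The 3'UTR of the members had a median of 1399.5 bases, against 1159 bases for all these genes. The study's list of predicted miR-140-3p.1 targets, made on human 3'UTRs, holds the human counterparts of *Itga6* and *Itga10*, and neither mouse 3'UTR holds the letters of that site in the window searched. For *Itga6* this window came from a transcript with 2000 coding bases, against 3132 to 3564 for the other alpha members. That transcript may be a partial one, so its 3'UTR may not be that of the main transcript. A match of letters is not a measurement of binding.

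Facts of the libraries that bear on the values were checked first. Each library lists TPM that sum to 1000000, and the number of genes that reached 0.5 TPM was 17128 to 17950 in the wild-type group, 15800 and 16056 in the first 2 *Mir140*-null replicates, and 17435 and 16991 in replicates 3 and 4. *Mir140* had 8.86 TPM in 1 library, the library labelled *Mir140*-null replicate 2, and 0 in the other 7, so that its TPM do not separate the genotypes. All 10 chondrocyte markers were present in every library, with a summed level of 61195 to 76717 TPM in wild-type and 46056 to 64445 TPM in the *Mir140*-null libraries. Most of this sum was *Col2a1*, at 47894 to 61630 TPM in wild-type and 34418 to 48361 TPM in *Mir140*-null libraries. The sum therefore says little of the other chondrocyte markers. *Mir140*-null replicates 1 and 2 stood apart: the 8 markers of fibroblasts and perichondrium, the connective tissue around cartilage, summed to 247 and 249.6 TPM there, to 3852 and 2472 TPM in *Mir140*-null replicates 3 and 4, and to 2091 to 4328 TPM in wild-type libraries. None of these 8 was at 0 in any library, and 1 of the 8 (*Pdgfra*) rose, while 0 fell in limma, with 0 falling at an unadjusted p under 0.05. Values without replicates 1 and 2 of the *Mir140*-null group are given for each member other than *Itgb5* and *Itgb8*, for the list medians printed and for the genes called in the other lists.

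Genotypes were compared with limma on log2(TPM + 1), a scale on which the added 1 understates changes of low genes, with Benjamini-Hochberg adjustment over the 17177 genes that reached 0.5 TPM in 4 or more libraries. All 10 members were tested, *Itgb8* only just, with 3 wild-type and 1 *Mir140*-null library at 0.5 TPM or more. At an adjusted p under 0.05, 5 members rose in *Mir140*-null chondrocytes (*Itga2*, *Itga5*, *Itga6*, *Itgav* and *Itgb1*), 1 fell (*Itga10*) and 4 did not pass (*Itga1*, *Itga11*, *Itgb5* and *Itgb8*). Of all genes tested, 10.5% rose, 6.4% fell and 16.9% passed in either direction. For 7 of the 10 members the genotypes had no overlap between libraries, with *Mir140*-null libraries higher for 5 and lower for 2, against 25.9% of all genes tested, 15.7% higher and 10.2% lower. The median log2 fold change of the members was 0.32, beside -0.01 for all genes tested, and without *Mir140*-null replicates 1 and 2 these medians were 0.49 and 0.07. Many of the genes tested were low. Among the 9668 genes with a mean of at least 5 TPM, the median was 0.11, and 1643 rose and 605 fell. Of the 6 members kept there, 4 rose and 1 fell. With no filter on low genes, calls were left for *Itgav* and *Itgb1* only, and with 1 factor of unwanted variation estimated from the least changed genes for *Itga6*, *Itgav* and *Itgb1*. With 1 factor estimated from residuals instead, the same 5 rose and 3 fell. Those that fell were *Itga10*, *Itga1* (limma adjusted p = 0.0369) and *Itga11* (0.0053). Without *Mir140*-null replicates 1 and 2, limma called 0 members, with 5 higher and 1 lower at an unadjusted p under 0.05, and 357 and 210 of all genes rose and fell. In RNA from whole cell isolates, fewer cells of a type and less RNA per cell cannot be told apart.

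**Figure D1:**
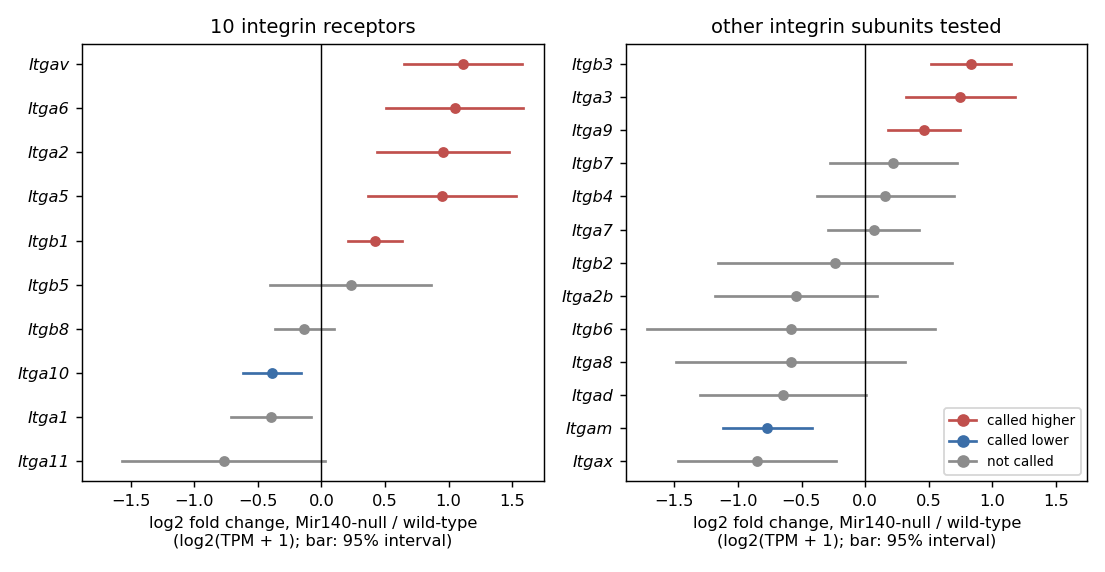
Log2 fold change of *Mir140*-null over wild-type libraries on the log2(TPM + 1) scale, from limma, with points for the estimate and bars for its 95% interval, for the 10 members (left) and the 13 other integrin subunits tested (right). The members reach from -0.77 for *Itga11* to 1.11 for *Itgav*, and coloured points mark genes that passed an adjusted p under 0.05.

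Of the 4 alpha subunits of collagen receptors, 1 rose, 1 fell and 2 did not pass. *Itga10* (chr3:96645584-96664519, + strand, in GRCm38 with GENCODE M21, as for all genes below; ENSMUSG00000090210), the chondrocyte receptor for type II collagen, was at 82.5, 99, 83.2 and 94.2 TPM in wild-type replicates 1 to 4 and 69.6, 71.3, 61.9 and 70.6 TPM in *Mir140*-null replicates 1 to 4. Every *Mir140*-null library lay below every wild-type library, and the spread within each genotype was small, with 89.7 ± 8.15 TPM in wild-type and 68.4 ± 4.38 TPM in the *Mir140*-null chondrocytes (mean ± SD, n = 4). The log2 fold change was -0.39 ± 0.10 (SE; limma adjusted p = 0.0351), a level 0.762 times that of the wild-type. This call was narrow: it held without wild-type replicate 1 (limma adjusted p = 0.0486) but was lost without any of the other 7 libraries, with adjusted p of 0.0569 to 0.0935, and after median-ratio scaling of the libraries (0.0913). The fold change itself stayed between -0.42 and -0.34 over these fits, and was -0.43 without *Mir140*-null replicates 1 and 2 (limma adjusted p = 0.102).

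*Itga2* (chr13:114833081-114932100, - strand; ENSMUSG00000015533), a collagen receptor subunit better known from platelets and epithelia, moved the other way. Its TPM were 2.56, 1.39, 2.86 and 2.61 in wild-type replicates 1 to 4 and 4.71, 8.05, 4.14 and 5.31 in *Mir140*-null replicates 1 to 4. The genotypes did not overlap, and the highest value was that of the library labelled *Mir140*-null replicate 2. The mean was 2.36 times that of wild-type chondrocytes, and the log2 fold change 0.96 ± 0.23 (SE; limma adjusted p = 0.0277). Only the fits without *Mir140*-null replicate 1 (0.0497) or 3 (0.0299) kept limma's adjusted p under 0.05, and without each of the other 6 libraries it was 0.0517 to 0.05999. The log2 fold change was 0.79 without *Mir140*-null replicates 1 and 2 together (limma adjusted p = 0.114). Of 5 platelet markers, among them *Itga2b*, 2 were tested and 0 passed in limma, with 0 at an unadjusted p under 0.05, and *Pf4* was at 0 in *Mir140*-null replicates 1 and 2. These markers had a summed level of 7.43 to 10.6 TPM in wild-type and 3.70 to 9.15 TPM in *Mir140*-null libraries.

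*Itga1* (chr13:114953096-115101964, - strand; ENSMUSG00000042284), which lies close to *Itga2* on the same strand and pairs with *Itgb1* in a receptor for type IV and other collagens, was at 2.35, 2.65, 2.03 and 2.56 TPM in wild-type replicates 1 to 4 and 1.29, 1.30, 2.001 and 1.78 TPM in *Mir140*-null replicates 1 to 4. All *Mir140*-null libraries were below all wild-type libraries, though the gap between wild-type replicate 3 and *Mir140*-null replicate 3 was slight. Its log2 fold change of -0.40 ± 0.14 (SE) did not pass, with a limma adjusted p of 0.0835 and a 95% interval of -0.71 to -0.08. Without *Mir140*-null replicates 3 and 4 it was -0.56 (limma adjusted p = 0.0362) and without replicates 1 and 2 it was -0.23 (limma adjusted p = 0.353).

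*Itga11* (chr9:62677826-62783982, + strand; ENSMUSG00000032243), the collagen receptor subunit of fibroblasts, divided the *Mir140*-null libraries. It was at 6.17, 5.63, 7.13 and 5.67 TPM in wild-type replicates 1 to 4. In *Mir140*-null replicates 1 and 2 it was at 1.54 and 1.76 TPM, and in replicates 3 and 4 at 5.87 and 5.38 TPM, of which the former lay inside the wild-type range. Over all 8 libraries the log2 fold change was -0.77 ± 0.35 (SE; limma adjusted p = 0.161, 95% interval -1.57 to 0.03), and it was called in 0 of the 8 fits that omitted 1 library. It was -0.11 without *Mir140*-null replicates 1 and 2 (limma adjusted p = 0.687) and -1.43 without replicates 3 and 4 (limma adjusted p = 0.00545). The *Mir140*-null libraries low in *Itga11* were those low in the sum of the fibroblast and perichondrium markers given above, which is mostly *Col1a1* and *Col3a1*. *Itga1* was also lowest in these libraries. The part of those cells in the levels of *Itga11* and *Itga1* was not tested.

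**Figure D2:**
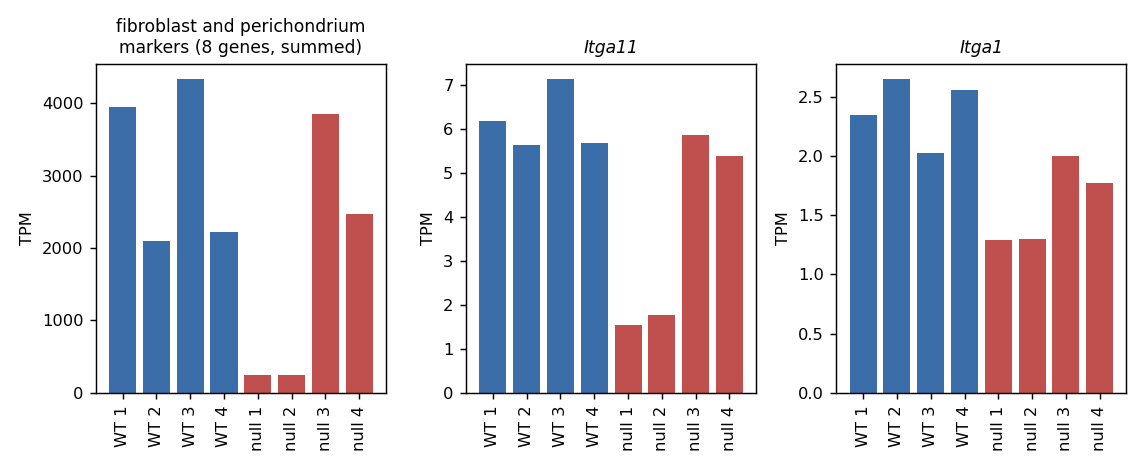
Level in TPM, as bars from 0, in each wild-type (WT, blue) and *Mir140*-null (null, red) library for the sum of 8 fibroblast and perichondrium markers, *Itga11* and *Itga1*. *Mir140*-null replicates 1 and 2 are the lowest in all 3 panels, and in the first they stand at 247 and 249.6 TPM. The sum is mostly *Col1a1* and *Col3a1*.

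The 4 collagen-binding alpha subunits together summed to 93.6, 109, 95.3 and 105 TPM in wild-type replicates 1 to 4 and to 77.2, 82.4, 73.9 and 83.1 TPM in *Mir140*-null replicates 1 to 4. *Itga10* made up most of this sum in every library, 87.4 to 91.1% in wild-type and 83.8 to 90.2% in *Mir140*-null libraries. *Itga2* took 1.28 to 2.999% of it in wild-type and 5.60 to 9.76% in *Mir140*-null libraries, so that the mRNA for collagen receptors was mainly that of *Itga10* in both genotypes.

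Both members that are alpha subunits for the RGD sequence of matrix proteins rose, while *Itga8* (log2 fold change -0.59; limma adjusted p = 0.326) and *Itga2b* (-0.54; 0.209), which also bind it and are no members, did not pass. *Itgav* (chr2:83724397-83806916, + strand; ENSMUSG00000027087), the alpha subunit of the vitronectin receptors and of those that bind latent TGF-beta, was at 20.4, 22.4, 25.96 and 16.7 TPM in wild-type replicates 1 to 4 and 61.1, 54.6, 38.3 and 37.1 TPM in *Mir140*-null replicates 1 to 4. The lowest *Mir140*-null library was above the highest wild-type library, and *Mir140*-null replicates 1 and 2 were the highest of all. The mean was 21.3 ± 3.86 TPM in wild-type and 47.8 ± 11.96 TPM in the *Mir140*-null chondrocytes (SD, n = 4), 2.24 times as high, and the log2 fold change was 1.11 ± 0.20 (SE; limma adjusted p = 0.0135). Of the 6 members called, *Itgav* alone was also called without each library in turn, with limma adjusted p of 0.0182 to 0.0428. Without *Mir140*-null replicates 1 and 2 together the log2 fold change was 0.81 (limma adjusted p = 0.0673). *Itgav* holds the miR-140-3p.1 site printed above, as *Itga1* and *Itga11* hold others, and the part of the site in this rise was not tested.

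*Itga5* (chr15:103344286-103366763, - strand; ENSMUSG00000000555), the alpha subunit of the fibronectin receptor, was at 40.6, 64.7, 47.6 and 57.6 TPM in wild-type replicates 1 to 4 and 144, 127, 74.6 and 76.2 TPM in *Mir140*-null replicates 1 to 4. The genotypes did not overlap, and *Mir140*-null replicates 1 and 2 lay far above replicates 3 and 4, which were not far above the highest wild-type library. The mean rose from 52.6 ± 10.6 to 105 ± 35.2 TPM (SD, n = 4), 2.002 times as high, with a log2 fold change of 0.95 ± 0.25 (SE; limma adjusted p = 0.0382). The call was kept without *Mir140*-null replicate 3 (0.0326) or 4 (0.0382) and lost without each of the other 6 libraries, with limma adjusted p of 0.0504 to 0.0960. The log2 fold change was 0.53 without *Mir140*-null replicates 1 and 2 (limma adjusted p = 0.167) and 1.36 without replicates 3 and 4 (limma adjusted p = 0.0101). The *Mir140*-null libraries highest in *Itga5* and *Itgav* were thus those lowest in the sum of fibroblast and perichondrium markers, and the part of those cells in these levels was not tested.

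**Figure D3:**
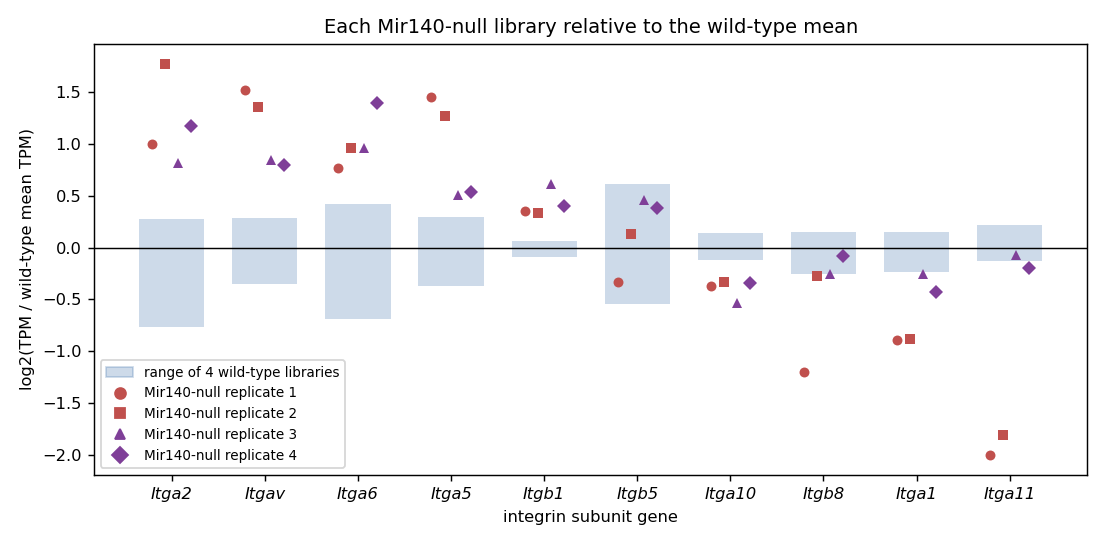
Log2 ratio of the TPM of each *Mir140*-null library (points, a symbol for each replicate) to the wild-type mean for the 10 members, with shaded bars for the range of the 4 wild-type libraries around that mean. All 4 *Mir140*-null libraries lie above the shaded range for *Itga2*, *Itgav*, *Itga6*, *Itga5* and *Itgb1* and below it for *Itga10* and *Itga1*, and for *Itga11* replicates 1 and 2 lie apart from replicates 3 and 4.

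The laminin receptor subunit *Itga6* (chr2:71745616-71858416, + strand; ENSMUSG00000027111) also rose, without that division. It was at 18.3, 39.6, 28.7 and 31.8 TPM in wild-type replicates 1 to 4 and 50.4, 57.7, 57.7 and 77.5 TPM in *Mir140*-null replicates 1 to 4. Here *Mir140*-null replicate 4 was the highest and wild-type replicate 1 the lowest library, and the genotypes did not overlap. The mean was 29.6 ± 8.79 TPM in wild-type and 60.8 ± 11.7 TPM in the *Mir140*-null chondrocytes (SD, n = 4), 2.06 times as high, with a log2 fold change of 1.05 ± 0.23 (SE; limma adjusted p = 0.0233). Leaving out wild-type replicate 3 (0.0596), wild-type replicate 4 (0.0516) or *Mir140*-null replicate 2 (0.0576) took limma's adjusted p over 0.05, and the call was kept without each of the other 5 libraries. The log2 fold change was 1.20 without *Mir140*-null replicates 1 and 2 and 0.89 without replicates 3 and 4, with limma adjusted p of 0.0857 and 0.0724.

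Among the beta subunits, the partner of most alpha subunits above rose by a small amount. *Itgb1* (chr8:128685654-128733200, + strand; ENSMUSG00000025809) was at 94.8, 88.4, 96.1 and 98.6 TPM in wild-type replicates 1 to 4 and 120.5, 119, 144 and 124 TPM in *Mir140*-null replicates 1 to 4. The values of each genotype were close together and did not overlap, with means of 94.5 ± 4.33 and 127 ± 11.7 TPM (SD, n = 4), a ratio of 1.34. The log2 fold change was 0.42 ± 0.09 (SE; limma adjusted p = 0.0232), and limma's adjusted p rose above 0.05 without wild-type replicate 2 (0.0547), 3 (0.0597) or 4 (0.0552) and after quantile normalization (0.131). Its log2 fold change was 0.50 without *Mir140*-null replicates 1 and 2 and 0.34 without replicates 3 and 4 (limma adjusted p = 0.0591 and 0.0503). *Itgb1* lies on the chromosome of the deleted locus, 21.1 Mb away from it.

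*Itgb5* (chr16:33829665-33949338, + strand; ENSMUSG00000022817), a partner of *Itgav*, did not pass. It was at 58.4, 88.4, 63.6 and 129.6 TPM in wild-type replicates 1 to 4 and 67.4, 92.96, 117 and 110.5 TPM in *Mir140*-null replicates 1 to 4, and the genotypes overlapped widely. Its wild-type libraries had the largest coefficient of variation of the 10 members, 38.2%. The log2 fold change was 0.23 ± 0.28 (SE; limma adjusted p = 0.593), and its 95% interval of -0.41 to 0.86 leaves room for a fall as well as a rise. *Itgb8* (chr12:119158022-119238802, - strand; ENSMUSG00000025321), the partner of *Itgav* in the receptor for latent TGF-beta, was the lowest member, at 0.484, 0.553, 0.628 and 0.639 TPM in wild-type replicates 1 to 4 and 0.251, 0.477, 0.483 and 0.543 TPM in *Mir140*-null replicates 1 to 4. The genotypes overlapped, and at these levels the log2 fold change of -0.13 ± 0.10 (SE; limma adjusted p = 0.379) has a 95% interval of -0.37 to 0.10, on a scale where the pseudocount of 1 is larger than the levels themselves. The ratio of *Itgav* to *Itgb5* TPM was 0.129 to 0.408 in wild-type and 0.327 to 0.907 in *Mir140*-null libraries, which overlap.

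Of the 4 members with a 7-base miR-140 site in the 3'UTR searched, *Itgav* and *Itga6* rose and *Itga1* and *Itga11*, whose values were lower in the *Mir140*-null mean, did not pass. Of the 6 members with none, *Itga2*, *Itga5* and *Itgb1* rose, *Itga10* fell, and *Itgb5* and *Itgb8* did not pass. *Itga1* had the most sites (6, in the longest 3'UTR of the 10 at 6994 bases). The part of these sites in the changes of the members was not tested.

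Members differed in how far libraries of a genotype lay apart. *Itgb1* was the most even in wild-type libraries, with a coefficient of variation of 4.59%, followed by *Itga10* at 9.08%. In *Mir140*-null libraries *Itga10* was the most even, at 6.40%, followed by *Itgb1* at 9.25%. *Itga11* went from 11.3% in wild-type to 63.5% in *Mir140*-null libraries, the largest value of any member. *Itga5* and *Itgav* had 20.2% and 18.1% in wild-type and 33.5% and 25.04% in *Mir140*-null libraries, whereas *Itga6* had 29.7% and 19.2%. The small fold changes of *Itgb1* and *Itga10* were thus called beside a small spread.

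The levels were then set side by side within each genotype. In wild-type chondrocytes the order of mean TPM was *Itgb1* (94.5), *Itga10* (89.7), *Itgb5* (85.01), *Itga5* (52.6), *Itga6* (29.6), *Itgav* (21.3), *Itga11* (6.15), *Itga1* (2.39), *Itga2* (2.35) and *Itgb8* (0.576). Neighbours in this order overlapped between libraries except *Itga5* and *Itga6*, *Itgav* and *Itga11*, *Itga11* and *Itga1*, and *Itga2* and *Itgb8*. In *Mir140*-null chondrocytes the order was *Itgb1* (127), *Itga5* (105), *Itgb5* (96.98), *Itga10* (68.4), *Itga6* (60.8), *Itgav* (47.8), *Itga2* (5.55), *Itga11* (3.63), *Itga1* (1.59) and *Itgb8* (0.439). There, neighbours overlapped except *Itgav* and *Itga2*, and *Itga1* and *Itgb8*. *Itga10* was the highest alpha subunit in all 4 wild-type libraries, and *Itga5* was the highest in *Mir140*-null replicates 1 to 3, while *Itga6* was just above it in replicate 4.

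**Figure D4:**
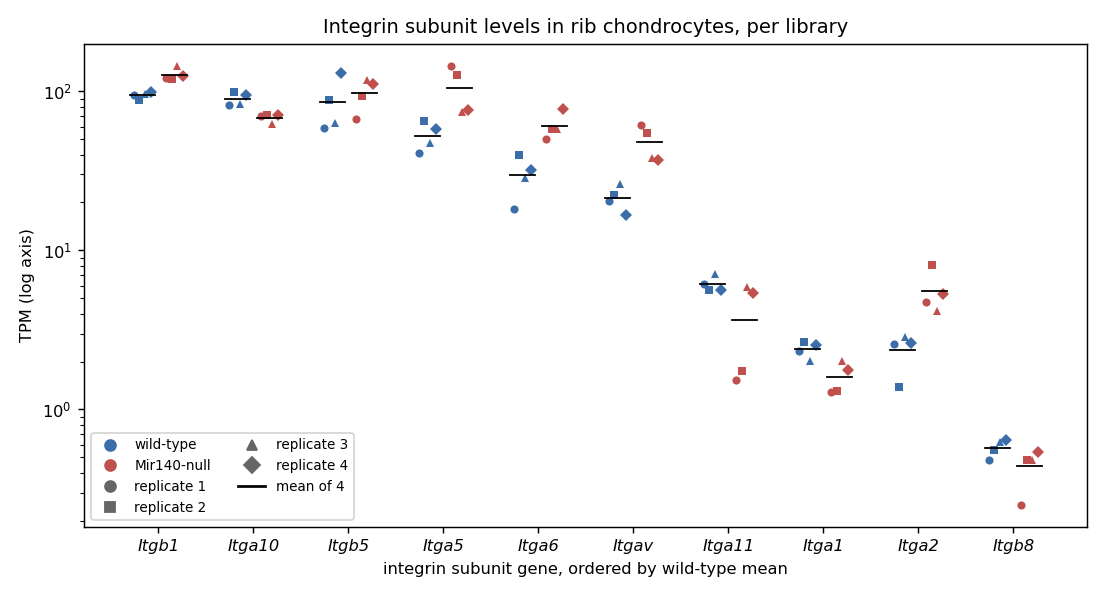
Level of each of the 10 members in TPM on a log axis, by library, with wild-type in blue, *Mir140*-null in red, a symbol for each replicate number and a line at the mean of 4 libraries. The genotypes separate for *Itgb1*, *Itga10*, *Itga5*, *Itga6*, *Itgav*, *Itga1* and *Itga2* and overlap for *Itgb5*, *Itga11* and *Itgb8*.

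The makeup of the alpha subunits differed between genotypes. *Itga10* made up 47.7, 42.1, 42.1 and 44.6% of the summed TPM of the 7 alpha subunits in wild-type replicates 1 to 4 and 20.96, 22.2, 25.3 and 25.8% in *Mir140*-null replicates 1 to 4. This share was 44.1 ± 2.67% in wild-type and 23.6 ± 2.36% in *Mir140*-null libraries (SD, n = 4), a difference larger than the spread within either genotype, and the 4 *Mir140*-null libraries were alike in it. A share also falls when other parts of the sum rise. *Itga10* itself was at 0.762 times the wild-type mean, beside 2.002, 2.06 and 2.24 times for *Itga5*, *Itga6* and *Itgav*. *Itga5* took 23.5 to 27.5% in wild-type and 27.8 to 43.2% in *Mir140*-null libraries, with the largest shares in replicates 1 and 2. *Itgav* took 7.92 to 13.1% and 13.6 to 18.4%, which do not overlap. *Itga6* took 10.6 to 16.8% and 15.2 to 28.3%, which overlap. The ratio of *Itga10* to *Itga5*, the collagen receptor of chondrocytes to the fibronectin receptor, was 2.03, 1.53, 1.75 and 1.64 in wild-type replicates 1 to 4 and 0.485, 0.561, 0.830 and 0.926 in *Mir140*-null replicates 1 to 4, above 1 in every wild-type library and below 1 in every *Mir140*-null library. This separation follows from the levels above, where *Itga10* was lower and *Itga5* higher without overlap, and is no further result. Relative to *Itgb1*, the partner of each, *Itga5* stood at 0.429 to 0.732 in wild-type and 0.517 to 1.19 in *Mir140*-null libraries and *Itga6* at 0.193 to 0.448 and 0.3999 to 0.624, ranges that overlap for both. On the same scale *Itga10* stood at 0.866 to 1.12 in wild-type and 0.429 to 0.6 in *Mir140*-null libraries, which do not overlap. That too follows from the separate levels of *Itga10* and *Itgb1*.

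**Figure D5:**
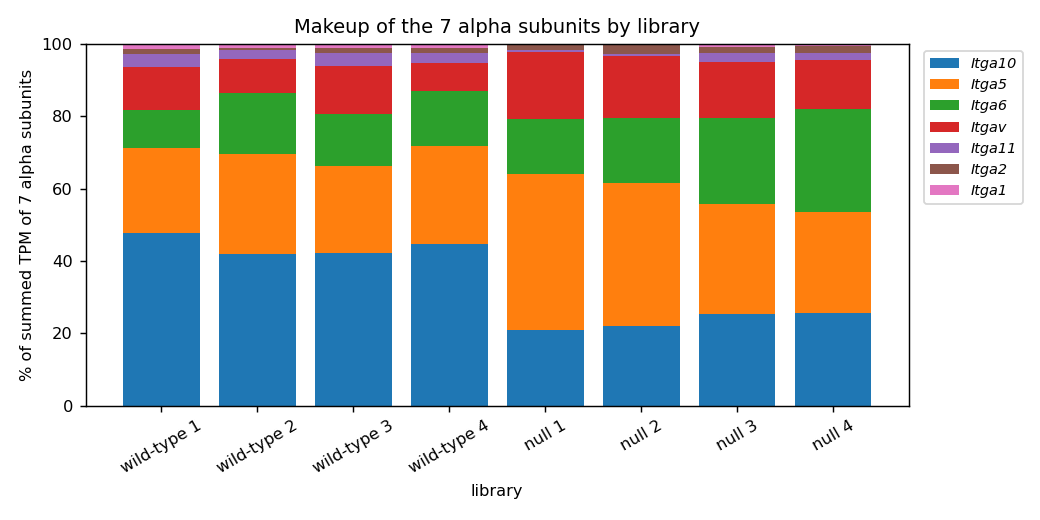
Percent of the summed TPM of the 7 alpha subunits taken by each, as stacked bars for the 8 libraries. *Itga10*, at the foot of each bar, takes 42.1 to 47.7% in wild-type and 20.96 to 25.8% in *Mir140*-null libraries. A share also falls where other alpha subunits rise.

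The 10 members summed to 327, 413, 358 and 439.9 TPM in wild-type replicates 1 to 4 and to 520.4, 534, 506 and 509 TPM in *Mir140*-null replicates 1 to 4, and every *Mir140*-null library was above every wild-type library. They made up 82.8 to 88.4% of the TPM of all 27 integrin subunits listed in wild-type and 86.98 to 91.03% in *Mir140*-null libraries. The sum of the alpha members relative to *Itgb1* was 1.82 to 2.66 in wild-type and 1.69 to 2.76 in *Mir140*-null libraries, ranges that overlap.

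Of the other 17 integrin subunits, 13 could be tested, of which 3 rose, 1 fell and 9 did not pass, beside 10.5% and 6.4% of all genes tested that rose and fell. The median log2 fold change of the 13 was -0.24. The sign of this median turned without *Mir140*-null replicates 1 and 2, to 0.21, and limma then called 1 of the 13 higher and 0 lower, with 1 lower at an unadjusted p under 0.05. *Itgb3*, a further partner of *Itgav* in vitronectin receptors, was at 1.21, 1.60, 1.81 and 1.78 TPM in wild-type replicates 1 to 4 and 3.10, 3.57, 3.54 and 4.31 TPM in *Mir140*-null replicates 1 to 4. It did not overlap between genotypes, its log2 fold change of 0.83 ± 0.14 (SE; limma adjusted p = 0.0106) was called without each library in turn, and it was 0.92 without *Mir140*-null replicates 1 and 2 (limma adjusted p = 0.0442). The laminin receptor subunit *Itga3* rose from 6.82 ± 1.69 to 11.9 ± 1.13 TPM (SD, n = 4; log2 fold change 0.75 ± 0.19, limma adjusted p = 0.0314), a call kept without wild-type replicate 1 or 2 or *Mir140*-null replicate 3 and lost without each of the other 5 libraries, with limma adjusted p up to 0.0778. It was 0.65 without *Mir140*-null replicates 1 and 2 (limma adjusted p = 0.169). *Itga9*, a partner of *Itgb1* that binds tenascin, rose from 11.5 ± 1.22 to 16.3 ± 1.69 TPM (SD, n = 4; log2 fold change 0.47 ± 0.12, limma adjusted p = 0.0383), and this call was lost without any 1 of the 8 libraries, at limma adjusted p of 0.0508 to 0.0996, and 0.0824 without *Mir140*-null replicates 1 and 2 (log2 fold change 0.54). The subunits of leukocytes were low: *Itgam* fell from 2.24 ± 0.410 to 0.909 ± 0.293 TPM (SD, n = 4; log2 fold change -0.77 ± 0.15, limma adjusted p = 0.0165), a call that held without each library in turn but was lost without *Mir140*-null replicates 1 and 2 together (-0.83; limma adjusted p = 0.0537). *Itgax* (5.42 and 2.54 TPM in wild-type and *Mir140*-null means; limma adjusted p = 0.0641), *Itgb2* (4.04 and 3.48 TPM; 0.712) and *Itgad* (1.76 and 0.776 TPM; 0.149) did not pass. *Itgax* did pass without wild-type replicate 1 (0.0342) or *Mir140*-null replicate 3 (0.0486). Of the 4 macrophage and leukocyte markers tested of 6, *Cd14* rose and *Lyz2* fell, and *Adgre1* was at 0 in *Mir140*-null replicate 1. The sum of these 6 was 35.1 to 61.1 TPM in wild-type and 69.5 to 133 TPM in *Mir140*-null libraries, nearly all of it *Cd68* and *Cd14*, and their part in the leukocyte subunits was not tested.

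The remaining subunits at a mean of 1 TPM or more did not pass: in the wild-type and *Mir140*-null means, the epithelial *Itgb6* was at 17.1 and 11.3 TPM (limma adjusted p = 0.438), the platelet subunit *Itga2b* at 7.45 and 5.04 TPM (0.209), the laminin receptor subunit *Itga7* at 3.87 and 4.10 TPM (0.794), *Itga8* at 1.72 and 0.847 TPM (0.326) and *Itgb4* at 0.918 and 1.16 TPM (0.666).

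Inside the cell, integrins are opened and tied to actin by talin, kindlin and their partners. Of 28 such adaptor and signalling genes listed, 26 could be tested, of which 5 rose, 1 fell and 20 did not pass, with a median log2 fold change of 0.18 (0.31 without *Mir140*-null replicates 1 and 2). Of all genes tested, 10.5% rose and 6.4% fell. Of the 21 adaptors with a mean of at least 5 TPM, 5 rose and 0 fell, beside 1643 and 605 of the 9668 genes at that level. *Rap1b*, the GTPase that recruits talin to integrins, was at 94.4, 99.8, 93.7 and 112 TPM in wild-type replicates 1 to 4 and 283, 293, 235 and 235 TPM in *Mir140*-null replicates 1 to 4, a log2 fold change of 1.38 ± 0.11 (SE; limma adjusted p = 0.00211) with no overlap between genotypes. It was the 1 adaptor still called without *Mir140*-null replicates 1 and 2 (1.23; limma adjusted p = 0.0118). *Tln1*, the main talin and the most abundant of the 28 in the mean of all 8 libraries, rose from 152 ± 39.8 to 267 ± 58.6 TPM (SD, n = 4; log2 fold change 0.82 ± 0.22, limma adjusted p = 0.0412), and this was called only without wild-type replicate 3 or *Mir140*-null replicate 3 when 1 library was left out (limma adjusted p = 0.0363 to 0.102 over the 8 fits). The second talin, *Tln2*, fell from 3.37 ± 1.004 to 1.44 ± 0.482 TPM (SD, n = 4; log2 fold change -0.83 ± 0.21, limma adjusted p = 0.0344), with a call in the same 2 of the 8 fits (0.0294 to 0.0856 over all 8). The kinase *Src* rose by 0.95 ± 0.27 (SE) on the log2 scale with overlapping genotypes (limma adjusted p = 0.0444), and its call was kept without wild-type replicate 2 or *Mir140*-null replicate 1 and lost without each of the other 6, at up to 0.102. The tensin *Tns3* (0.81; limma adjusted p = 0.00862) and the integrin-associated *Cd47* (0.71; limma adjusted p = 0.0112) rose in these log2 fold changes and in every fit with 1 library left out. Without *Mir140*-null replicates 1 and 2, the log2 fold change of *Tns3* was 0.79 (limma adjusted p = 0.0520), of *Cd47* 0.67 (0.0726), of *Src* 1.24 (0.0621), of *Tln1* 0.77 (0.172) and of *Tln2* -0.66 (0.186). *Lims2*, of the complex that binds the beta tail, was at 159 and 169 TPM in the wild-type and *Mir140*-null means and did not pass (limma adjusted p = 0.693).

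On the ligand side, 14 collagen genes were tested, of which 3 rose and 3 fell, beside 10.5% and 6.4% of all genes tested. The collagens had a median log2 fold change of -0.48. This median was -0.05 without *Mir140*-null replicates 1 and 2, and 0 of the 14 passed in limma, with 6 at an unadjusted p under 0.05. The log2 fold changes of *Col1a1* (-2.26 with all libraries and -0.03 without these 2) and *Col3a1* (-1.82 and -0.06), the fibrillar collagens of connective tissue, moved most in this way. The chains of type VI collagen, which surrounds chondrocytes, rose: *Col6a3* from 453 ± 73.7 to 868 ± 114 TPM (SD, n = 4; log2 fold change 0.94 ± 0.15, limma adjusted p = 0.00882), *Col6a2* by 0.72 (limma adjusted p = 0.0139) and *Col6a1* by 0.46 (limma adjusted p = 0.0490) on the log2 scale. The chains that fell belong to the fibrils of cartilage, namely *Col11a1* (-0.50; limma adjusted p = 0.0469), *Col9a3* (-0.48; 0.0266) and *Col9a1* (-0.43; 0.0466). With 1 library left out, *Col6a2* and *Col6a3* were called in all 8 fits. *Col6a1* was called only without *Mir140*-null replicate 3, *Col9a1* and *Col11a1* only without *Mir140*-null replicate 4, and *Col9a3* only without *Mir140*-null replicate 2 or 4 or wild-type replicate 2, with limma adjusted p of up to 0.105, 0.111, 0.107 and 0.0744 over the 8 fits. With *Mir140*-null replicates 1 and 2 left out, the log2 fold change of *Col6a3* was 0.91 (limma adjusted p = 0.0575), of *Col6a2* 0.70 (0.0849), of *Col6a1* 0.41 (0.212), of *Col11a1* -0.44 (0.107), of *Col9a3* -0.47 (0.0755) and of *Col9a1* -0.41 (0.129). *Col2a1*, the type II collagen that *Itga10* binds and the most abundant of the list, was at 61630.1, 61442, 47894 and 60174 TPM in wild-type replicates 1 to 4 and 34418, 48361, 35122 and 47756 TPM in *Mir140*-null replicates 1 to 4. The lowest wild-type and the highest *Mir140*-null values overlapped, and the log2 fold change of -0.49 ± 0.16 (SE) did not pass (limma adjusted p = 0.0695), nor did those of *Col11a2* (-0.10; 0.730) and *Col9a2* (0.02; 0.930).

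Of 16 ligands bound through an RGD sequence or by the *Itgav* and *Itga5* receptors, 14 could be tested, of which 2 rose and 1 fell, beside 10.5% and 6.4% of all genes tested. These ligands had a median log2 fold change of -0.29. Here too the sign of the median turned without *Mir140*-null replicates 1 and 2, to 0.20, and 0 of the 14 passed in limma, with 4 at an unadjusted p under 0.05. *Tgfbi* rose from 212 ± 39.97 to 384 ± 46.8 TPM (SD, n = 4; log2 fold change 0.87 ± 0.16, limma adjusted p = 0.0134) and *Ccn2* from 169.7 ± 20.7 to 247 ± 13.9 TPM (log2 fold change 0.54 ± 0.11, limma adjusted p = 0.0180), the latter not called without *Mir140*-null replicate 2 (0.0525). *Mfge8*, a ligand of the *Itgav* receptors, fell from 376 ± 45.6 to 244 ± 61.4 TPM (log2 fold change -0.65 ± 0.19, limma adjusted p = 0.0498), a call kept only without *Mir140*-null replicate 3 (0.0453) or 4 (0.0397). When *Mir140*-null replicates 1 and 2 were both left out, *Mfge8* was at -0.34 (limma adjusted p = 0.178), *Tgfbi* at 0.96 (0.0621) and *Ccn2* at 0.52 (0.1001) in this log2 fold change. Fibronectin itself, *Fn1*, was at 2453, 3438, 2529 and 2937 TPM in wild-type replicates 1 to 4 and 2785, 2936, 2169 and 2780.4 TPM in *Mir140*-null replicates 1 to 4, which overlap (log2 fold change -0.09, 95% interval -0.42 to 0.25, limma adjusted p = 0.708). *Thbs1* was at 433 and 314 TPM and did not pass (limma adjusted p = 0.0926). Of 11 laminin chains, the ligands of *Itga6*, 9 could be tested and 0 passed in limma, with 3 at an unadjusted p under 0.05, all in the direction of a higher *Mir140*-null level. Of these, *Lamb2* was at 158 and 243 TPM in the wild-type and *Mir140*-null means (limma adjusted p = 0.0825) and *Lamc1* at 28.97 and 47 TPM (limma adjusted p = 0.0819).

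Mitochondrially encoded genes took 4.06% to 6.99% of TPM in wild-type and 8.41% to 10.1% in *Mir140*-null libraries. Of 6 mural and smooth muscle markers *Cspg4* rose and *Acta2* fell, with sums of 80.8 to 133 TPM in wild-type and 161 to 199.6 TPM in *Mir140*-null libraries. The median log2 fold change of these 6 was -0.33, and 0.25 without *Mir140*-null replicates 1 and 2. The higher sums thus do not stand for the list as a whole. Of 10 chondrocyte markers *Acan* rose and *Hapln1* and *Col9a1* fell. Of the 4 skeletal muscle, 4 osteoblast, 5 endothelial, 5 erythroid and 4 Schwann cell markers tested, 0 passed in limma, with 3, 1, 0, 0 and 0 at an unadjusted p under 0.05. Of the called markers named here and above, *Cd14* was the 1 still called without *Mir140*-null replicates 1 and 2 (limma adjusted p = 0.0403). The part of these measures in the integrin levels was not tested.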

How the data were processed

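RNA of rib chondrocytes, in 4 wild-type and 4 *Mir140*-null samples, was read as single-end reads of 75 bases from stranded poly(A) libraries, at over 12000000 reads per sample per the labels. The authors quantified the reads with Salmon on the mm10 transcriptome and deposited TPM per Ensembl gene, whose values allow for transcript length and library total but not for composition between libraries. The submitters' processing notes also name FastQC 0.11.7 and DESeq2, and the study's methods name RUVSeq before DESeq2; those steps use counts and were not repeated on TPM. TPM keep no record of depth, which is therefore known here only by the lower bound in the labels, and no counting interval is given. Identifiers listed on several of the 52865 lines were counted once. Symbols and positions came from GENCODE M21 (GRCm38, the genome of mm10), which holds 99.8% of the identifiers, and 3'UTRs were rebuilt from its exons.

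Groups and replicate numbers were read from the sample titles. Genes that reached 0.5 TPM in 4 or more libraries entered limma 3.58.1 (R 4.3.3) on log2(TPM + 1), moderated with a mean-variance trend, two-sided, with genotype as the only term, Benjamini-Hochberg adjustment over all genes tested and a threshold of 0.05. Tables and figures were made with Python 3.11.15, pandas 2.3.3, NumPy 2.4.6 and matplotlib 3.10.9, and the fit was tested on simulated data. The members and all gene lists were chosen with earlier results of these data known. Named in the text are all members, the other integrin subunits at a mean of 1 TPM or with a call, and, of each list of adaptors and ligands, the 3 with the highest mean TPM and the 3 called genes with the largest log2 fold change in each direction. Called markers, *Tns3*, *Cd47*, *Col1a1*, *Col3a1* and markers at 0 were named after their values were seen, and 1 gene covered by the rule is not reported here. No libraries were identical. Same-numbered libraries of the genotypes did not deviate together, so the replicate numbers were not taken as pairs.

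The alternatives were a pseudocount of 0.1, no filter, a mean of at least 5 TPM, median-ratio scaling, quantile normalization, nuclear-encoded genes only, a replicate block, 1 factor of unwanted variation from residuals (RUVr) or from genes outside the 5000 most changed (RUVg), weights for sample quality, and each library left out in turn. Leaving out *Mir140*-null replicates 1 and 2, or 3 and 4, was added after seeing the data.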

Additional observations from a re-analysis of the deposited data

Results flagged for a closer look

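Dixon's ratio of the gap to the range was computed for 44 groups of 4 libraries, those of the 10 members and of the other integrin subunits at a mean of 1 TPM or more, and 1 group exceeded the 95% critical value for 4 samples. *Itga7*, a laminin receptor subunit best known from muscle, was at 2.96 TPM in wild-type replicate 1 and at 4.12 to 4.27 TPM in the other wild-type libraries, a ratio of 0.892. Chance flags about 1 in 20 such groups. No group of a member was flagged.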

How the results depend on the processing

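The 10 log2 fold changes were recomputed in 196 alternative fits. Direction and side of the threshold were kept in 140, the call was lost with the same direction in 50, and a call was gained in 4. In the remaining 2 the direction turned, for members that were not called: *Itgb8* after quantile normalization (0.0317) and *Itgb5* without *Mir140*-null replicates 3 and 4 (-0.0294). *Itgav* was called in 20 of its 21 fits, *Itga6* in 15 of 21, *Itgb1* in 14 of 21, *Itga2* in 10 of 20 and *Itga5* and *Itga10* in 8 of 21. A mean of at least 5 TPM gave no value for *Itga1*, *Itga2*, *Itga11* and *Itgb8*.

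Counts of genes that rose and fell were 1797 and 1100 among all genes, 5 and 1 among the members, 3 and 1 among other integrin subunits, 5 and 1 among adaptors, and 5 and 4 among the collagens, RGD ligands and laminins, counted jointly as ligands. Where they moved by over 1.5 times the values follow, and the cause was not tested. With no filter, over 36617 genes, they were 977 and 539 among all genes, 2 and 0 among members, 1 and 0 among other subunits, 3 and 0 among adaptors, and 0 ligands fell. With 1 factor by RUVg they were 979 and 426 among all genes and 3 and 0 among members, 1 other subunit rose, and 0 adaptors and 0 ligands fell. With 1 factor by RUVr, 2016 genes, 3 members, 3 adaptors and 13 ligands fell. A mean of at least 5 TPM, over 9668 genes, left 605 genes, 0 other subunits and 0 adaptors that fell. After quantile normalization 3 members rose and 2 adaptors fell. After median-ratio scaling 0 members, 2 adaptors and 1 ligand fell. A pseudocount of 0.1 had 2 adaptors fall, sample quality weights 2 other subunits and 2 ligands, and nuclear-encoded genes only 1 ligand.

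The replicate block gave 671 and 454 among all genes, 2 and 0 among members (*Itga6* and *Itgav*), 1 and 0 among other subunits, 0 adaptors that fell, and 2 and 0 among ligands. The replicate numbers are only names here: deviations of same-numbered libraries had r of -0.01 to 0.07, and 2 of 8 libraries correlated best with their own number.

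Without *Mir140*-null replicates 1 and 2 the counts were 357 and 210 among all genes, 0 and 0 among members, 1 and 0 among other subunits, 1 and 0 among adaptors, and 0 and 0 among ligands. Without replicates 3 and 4 they were 1889 and 2212, 3 and 2, 1 and 2, 3 and 4, and 5 and 13. Both of these settings were added with the data in view. The fits that omitted 1 library gave 779 to 1553 and 419 to 1214 among all genes, 1 to 5 and 0 to 1 among members, 1 to 2 and 1 to 2 among other subunits, 3 to 5 and 0 to 3 among adaptors, and 3 to 5 and 0 to 4 among ligands, with the fewest members risen (1) without wild-type replicate 3 or 4. Over all alternatives in which limma called 0 of a kind, whichever the setting, genes at an unadjusted p under 0.05 numbered 5 members that rose and 1 to 3 that fell, 0 to 3 other subunits and 0 to 4 adaptors that fell, and 7 ligands that rose and 5 to 10 that fell. The exact depth of each library is unknown, so it cannot be said which of the low members, such as *Itgb8* under 1 TPM, were limited by it.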
